A study of Mus musculus with 6 samples.

Results

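The genes described here are 41 listed genes of the ATF4 branch of the integrated stress response, taken by symbol from a table of 55471 Ensembl genes. They are the kinases and transcription factors of the branch, its effectors, the enzymes of serine and one-carbon metabolism, amino acid transporters and cytosolic tRNA synthetases. All 41 were found, and 40 passed the filter on low counts that left 15454 genes for testing; Stc2 did not pass. PolyA RNA was sequenced from 10T1/2 cells, a mouse embryonic fibroblast line, in 2 groups of 3 libraries. One group is wild type (WT), and the other carries the label Ranbp2 KO, in which CRISPR/Cas9 was used against Ranbp2, the gene of a large protein of the nuclear pore. Neither group was treated before extraction. The design text calls the libraries biological replicates, without saying whether the edited cells descend from 1 clone or how cultures were separated, so a p-value here reflects variation among these 6 libraries.

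The integrated stress response couples stress to protein synthesis. Kinases such as PERK (Eif2ak3), which senses unfolded protein in the endoplasmic reticulum, and GCN2 (Eif2ak4), which senses uncharged tRNA, phosphorylate the translation factor eIF2alpha. Most translation then falls while that of Atf4 mRNA rises, and the ATF4 protein, paired with C/EBP factors, turns on genes that supply amino acids, charge tRNA and produce glycine and one-carbon units from serine. Neither ATF4 protein nor eIF2alpha phosphorylation was measured here.

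ATF4 is known to bind a short element that joins a C/EBP and an ATF half-site, TGATGNAA in its common form. RefSeq promoter windows of build GRCm38.p6, from 250 bases before to 50 after the start of transcription, were matched by symbol for 33 of the 41 genes, and both strands were searched. The letters were found in the windows of 12 of the 33 genes (36.4%), whereas 4.51% of 27025 genes with a window held them. In 8 genes a match lay wholly before the start, and in Iars, Slc1a4, Trib3 and Yars the matches crossed or followed it. The 7 sequences below show which letters stand where in genes that moved in different directions. They are written 5′ to 3′ on the strand of the gene, with every match in capitals; TTGCATCA, TTTCATCA and TTACATCA are matches on the opposite strand. Distances are from the RefSeq start. By the GENCODE M21 annotation the sites of Asns, Nupr1 and Vldlr overlap an exon of a transcript of the same gene and are shown as 30 bases, those of Chac1, Gars and Slc7a11 lie outside every gene, and that of Pck2 lies in an intron of Gm10876.
Asns (chr6:7693214-7693243, minus strand, match begins 23 bases before the start): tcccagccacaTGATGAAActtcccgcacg
Gars (chr6:55037945-55038000, plus strand, 30 bases before): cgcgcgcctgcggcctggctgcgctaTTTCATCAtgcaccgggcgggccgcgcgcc
Slc7a11 (chr3:50443646-50443705, minus strand, 66 and 47 bases before): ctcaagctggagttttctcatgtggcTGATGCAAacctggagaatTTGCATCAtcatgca
Pck2 (chr14:55540137-55540196, plus strand, 103 bases before): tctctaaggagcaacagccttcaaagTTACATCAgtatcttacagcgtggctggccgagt
Nupr1 (chr7:126625562-126625591, minus strand, 110 bases before): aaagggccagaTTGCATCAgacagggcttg
Chac1 (chr2:119351023-119351082, plus strand, 193 bases before): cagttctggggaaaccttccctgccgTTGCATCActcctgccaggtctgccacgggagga
Vldlr (chr19:27216809-27216838, plus strand, 200 bases before): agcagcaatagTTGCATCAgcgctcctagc

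Genes with and without the element were called in both directions; over all genes tested, 17.6% were called higher and 21.3% lower, 38.9% in either direction, and 43.9% of those at 10 CPM (counts scaled to a common library total) or more. Of the 12 genes with a match, 3 were called higher (Asns, Aars, Gars), 6 lower (Nupr1, Chac1, Vldlr, Slc7a11, Slc1a4, Iars) and 3 did not pass, with a median log2 difference of -0.12. These 9 calls are 75% of the 12. Of the 20 tested genes whose window held no match, 5 were called higher, 5 lower and 10 did not pass (50% called), with a median of -0.02. The 2 sets were not tested against each other. The endoplasmic reticulum stress element in its full form (ERSE), searched on both strands, was in 0 of the 33 windows and in 0.137% of all genes with a window. A match is a description of the letters and no match says nothing about binding elsewhere.

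Library totals lay between 32072817 and 46321967 expected counts. Ranbp2, the targeted gene, was not lower in the libraries labelled KO, with 289 to 294 CPM against 219.6 to 249.96 CPM in WT, a log2 difference of 0.28 (SE 0.07, edgeR adjusted p = 0.012). The design text names qPCR, western blot and staining as checks of the deletion, which are not analysed here, and a gene total does not show where reads fall within the gene. The group is therefore called KO-labelled, and higher or lower means against WT. All 14 fibroblast markers passed the filter, and 64.3% of them were called, beside 38.9% of all genes tested. Of these markers, 5 were called higher (Col3a1, Dcn, Lum, Pdgfra and Fn1) and 4 lower (Col1a1, Pdgfrb, Fbn1 and Thy1). Their summed level was 28699.8 to 35917 CPM in KO-labelled and 23811 to 27356 CPM in WT libraries, but without Fn1 the other 13 summed to 17329 to 19537 against 18214 to 21221 CPM, which overlap. Thy1 stood at 0.535 ± 0.219 CPM (SD, n = 3) in KO-labelled and 58.3 CPM in WT libraries. The summed markers of endothelial cells (20.9 to 24.8 against 35.3 to 39.5 CPM), of blood cells (4.71 to 5.42 against 7.996 to 8.36) and of neurons and glia (3.403 to 4.15 against 16.3 to 18.6) were lower in KO-labelled libraries. A single gene carried each of these sums, Tek, Cd14 and Tubb3, and without it the rest overlapped between the groups (0.568 to 1.09 against 0.502 to 1.02, 1.84 to 2.89 against 1.79 to 2.63, and 1.54 to 1.88 against 1.76 to 1.93 CPM). Those of epithelium (6.17 to 9.15 against 2.16 to 2.63), skeletal muscle (8.46 to 12.5 against 6.68 to 7.07), fat (68.7 to 75.7 against 33.6 to 42.95) and cartilage (1132 to 1258 against 878 to 1088) were higher. Cdh1 carried the epithelial sum, and the other 6 genes summed to 0.325 to 0.438 against 0.145 to 0.304 CPM, without overlap. Col2a1 carried the cartilage sum. The sums of the other 5 cartilage genes overlapped between the groups (205 to 222 against 218 to 225 CPM), with Sox9 called lower and Col9a1 and Comp higher. Pparg and Fabp4 carried the fat sum, while Adipoq, Plin1 and Cidec had means of at most 0.0816, 0.032 and 0.00855 CPM in either group. Acta1, which did not pass, and Des, which was called higher, carried the muscle sum. Without Acta1 the rest did not overlap (2.35 to 3.13 against 0.665 to 0.939 CPM). Among the markers with no count in any library were Cldn4, Adgre1, Myod1, Myog and Lep. The part of these markers in the results below was not tested, and fewer cells of a kind cannot be told apart from less RNA per cell in bulk samples.

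The 41 genes spanned a wide range of levels per length. In WT libraries Atf4 stood highest, at 125 ± 6.22 CPM per kb of exon (SD, n = 3), followed by Psat1 at 120.0 ± 0.833, Atf5 at 115 ± 18.5, Gars at 113 ± 2.28 and Phgdh at 105 ± 10.1. The gap between each neighbouring pair of these 5 was smaller than the larger SD of the pair. At the low end were Slc7a11 at 0.677 ± 0.0481, Slc7a3 at 0.234 ± 0.0447 and Stc2 at 0.0381 ± 0.018, with Gdf15 at 0.771 ± 0.172 within its spread of Slc7a11. The stress hormone genes Gdf15 and Stc2 were the effectors with the lowest levels per length in WT cells.

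**Figure D1:**
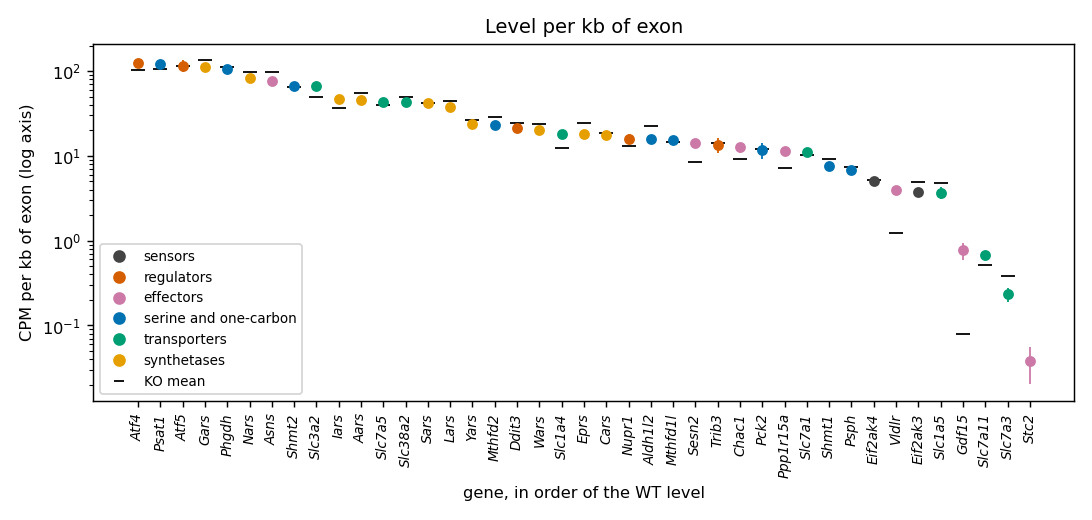
Level of each of the 41 genes in CPM per kb of exon (vertical log axis), in order of the WT level. Coloured points are WT means with SD bars (n = 3) by role, and black dashes are means of the KO-labelled libraries; Stc2, with no count there, has no dash. Atf4 is highest at 125 and Stc2 lowest at 0.0381 in WT, and the dash of Gdf15 lies farthest below its point.

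The set did not move as a block. Of 40 tested genes, 13 were called higher and 11 lower in KO-labelled libraries at an adjusted p below 0.05, and 16 did not pass. Over all 15454 genes tested, 17.6% were called higher and 21.3% lower, 38.9% in either direction. Among genes with a mean of at least 10 CPM, 43.9% were called, and 21 of the 37 listed genes at that level were. The median log2 difference of the 40 genes was 0.05, beside 0.01 over all genes. Most differences were small: 85% of the 40 genes lay within 0.5 of 0 on the log2 scale, as did 71.98% of all genes tested and 85.1% of those at 10 CPM or more. Only Gdf15 and Vldlr passed the test with a change of at least 2-fold, both lower. Of all 15454 genes tested, 885 were called lower and 682 higher by at least 2-fold. Among genes at 10 CPM or more, 3.47% were called with such a change. The groups did not overlap for 26 of the 40 genes, beside 51.4% of all genes tested, with 13 above (24.6%) and 13 below (26.8%). Calls by role differed in direction: the 5 lower calls among 6 tested effectors stood beside 3 higher and 0 lower among 9 serine and one-carbon enzymes and 5 higher and 1 lower among 10 synthetases. Whether the roles differ from each other was not tested.

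**Figure D2:**
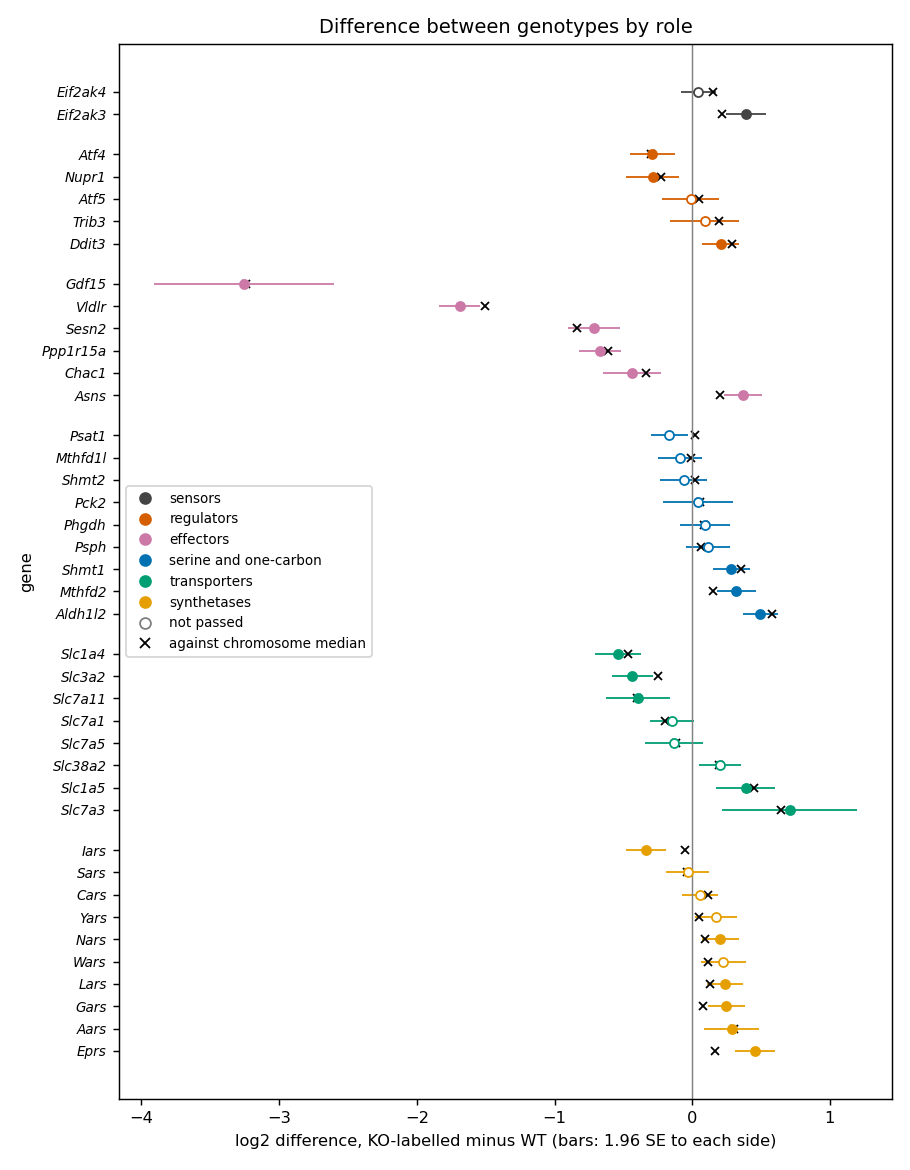
Log2 difference of each of the 40 tested genes, KO-labelled minus WT (horizontal axis), grouped and coloured by role. Bars are 95% intervals, filled points passed at an adjusted p below 0.05 and open points did not, and crosses are the differences against the median of the gene's chromosome. Gdf15 (-3.25) and Vldlr (-1.69) lie farthest left, and the crosses of Eprs and Iars lie much nearer to 0 than their points.

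Of the eIF2alpha kinases, Eif2ak3 rose and Eif2ak4 did not pass. Eif2ak3 (ENSMUSG00000031668, chromosome 6, 70844515 to 70905245) stood at 27.96, 29.4 and 31.5 CPM in KO-labelled and at 23.8, 22.4 and 21.7 CPM in WT libraries. All 3 KO-labelled values were above all WT values, and the log2 difference was 0.39 (SE 0.07, adjusted p = 0.00264). Genes of chromosome 6 had a median log2 difference of 0.17, and against that median Eif2ak3 was 0.22 higher (adjusted p = 0.0462). Eif2ak4 stood at 37.5, 38.2 and 39.8 CPM in KO-labelled and at 36.7, 37.3 and 37.9 CPM in WT libraries. Its groups overlapped, with a log2 difference of 0.05 (interval -0.08 to 0.17).

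The regulators split. Atf4 mRNA (ENSMUSG00000042406, chromosome 15, 80255184 to 80257541) stood at 264, 239 and 220.3 CPM in KO-labelled and at 280.5, 294 and 309.8 CPM in WT libraries. Every KO-labelled value lay below every WT value, and Atf4 fell by 0.29 (SE 0.08, adjusted p = 0.0206) on the log2 scale, to 0.819 of the WT level. Ddit3, the gene of the pro-apoptotic factor CHOP and a textbook target of ATF4, went the other way, with 41.9, 42.9 and 41.3 CPM against 38.4, 35.3 and 35.6 CPM. The groups did not overlap and the log2 difference of Ddit3 was 0.21 (SE 0.07, adjusted p = 0.0371). A short second gene model named Ddit3 lies within the same locus and held 0.270 CPM in KO-labelled libraries. Nupr1, a small stress-induced chromatin protein, stood at 31.4, 35.8 and 31.9 CPM against 36.8, 38.1 and 45.9 CPM, without overlap, and fell by 0.29 (SE 0.10, adjusted p = 0.044). Trib3, a pseudokinase that ATF4 induces and that dampens ATF4 in turn, overlapped between the groups at 28.2, 32.1 and 31.1 CPM against 34.5, 27.9 and 23.4 CPM (adjusted p = 0.609). Atf5, a related factor whose translation is also controlled through eIF2alpha, ranged from 223 to 237 CPM and from 197 to 269.6 CPM, with an adjusted p of 0.942.

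These 3 calls among regulators lay close to the threshold. With 1 library left out, the log2 difference was -0.36 to -0.23 for Atf4, 0.18 to 0.24 for Ddit3 and -0.35 to -0.18 for Nupr1. It was lowest in size for Nupr1 without WT library 3. The adjusted p rose above 0.05 without the libraries, or under the settings, named next. A fit with fewer libraries has less information, so a lost call alone does not show that a difference is absent. The call of Atf4 ended on leaving out KO-labelled library 2 (adjusted p = 0.0637) or 3 (0.0862) or WT library 2 (0.068) or 3 (0.0521). With all 6 libraries it also ended when scaled by library size alone (0.0551) or with the replicate number as a block (0.0605). Its range was 0.00217 to 0.0862 over 14 alternatives. That of Ddit3 ended without any 1 of the KO-labelled libraries (0.0615, 0.123 and 0.0823) and without WT library 2 (0.149) or 3 (0.0641). With all 6 libraries it also ended with the replicate number as a block (0.0942) and without a count filter (0.186, the highest of 14, with 0.00943 the lowest). That of Nupr1 ended without KO-labelled library 1 (0.123) or 3 (0.119) or WT library 2 (0.0637) or 3 (0.107). With all 6 libraries it also ended when scaled by library size alone (0.0541) or filtered at 1 CPM (0.0559). The replicate block (0.0696) and the offset by the median of the chromosome (0.107) ended it too. Its range was 0.00329 to 0.123.

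The 5 tested effectors other than Asns fell, where 21.3% of all genes tested were called lower. Vldlr, a receptor for lipoproteins and reelin (ENSMUSG00000024924, chromosome 19, 27216484 to 27254231), stood at 11.8, 13.0 and 12.004 CPM in KO-labelled and at 40.0, 41.3 and 37.6 CPM in WT libraries, a decrease to 0.31 of the WT level (log2 difference -1.69, SE 0.08, adjusted p = 2.51e-07). The groups were far apart relative to their spread, and the median of chromosome 19 was -0.19. Sesn2, a leucine sensor that restrains mTORC1 and that p53 also induces, stood at 29.0, 29.4 and 30.9 CPM against 55.5, 48.0 and 42.9 CPM. It fell by 0.71 (SE 0.10, adjusted p = 0.000324), with WT library 1 the highest of the WT libraries. Ppp1r15a, which encodes the GADD34 subunit that directs a phosphatase to eIF2alpha and so ends the response, stood at 21.6, 22.0 and 20.3 CPM against 33.8, 31.4 and 36.4 CPM and fell by 0.67 (SE 0.08, adjusted p = 0.000131). Chac1, an enzyme that degrades glutathione, fell from 20.5 ± 2.77 to 15.1 ± 1.16 CPM (log2 difference -0.44, adjusted p = 0.0102). None of these genes overlapped between the groups.

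The secreted stress factors were scarce. Gdf15, a circulating stress signal that p53 also induces, stood at 0.157, 0.154 and 0.128 CPM in KO-labelled and at 1.54, 1.67 and 1.07 CPM in WT libraries, and fell by 3.25 (SE 0.33, adjusted p = 5.63e-05). It had 16 counts over the KO-labelled and 186 over the WT libraries, so that WT libraries held 9.74 times as much (95% interval from counting error alone, 5.84 to 17.4). Stc2, a secreted glycoprotein, had 0 counts over the KO-labelled and 26 over the WT libraries. Against a floor of 3 counts over the group it was at least 7.26-fold lower if its 26 WT counts are taken as exact. Stc2 had no test in the main fit and was called lower when no count filter was set.

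Asns, which makes asparagine and is a common readout of ATF4, rose. Asns (ENSMUSG00000029752, chromosome 6, 7675169 to 7693254) stood at 259.7, 287 and 258 CPM in KO-labelled and at 209, 201 and 211 CPM in WT libraries. No value overlapped, and the log2 difference was 0.37 (SE 0.07, adjusted p = 0.00243). Against the median of chromosome 6 it was 0.20 (adjusted p = 0.0501), so this call was lost at that setting.

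Of the 9 serine and one-carbon genes, 3 rose and 6 did not pass (33.3% called, beside 38.9% of all genes tested). The enzymes that make serine from a glycolytic intermediate did not pass. Phgdh, the first of them, stood at 253, 299 and 289 CPM in KO-labelled and at 287, 263 and 237 CPM in WT libraries, with overlapping groups and a log2 difference of 0.10 (interval -0.09 to 0.28). Psat1, the aminotransferase of the second step, stood at 441, 475 and 449.5 CPM against 513, 512 and 507 CPM. Its groups did not overlap, but the log2 difference of -0.17 (interval -0.30 to -0.03) had an adjusted p of 0.0841, and it was 0.02 against the median of chromosome 19. Psph, the phosphatase of the last step, stood at 32.3 ± 3.01 against 29.7 ± 0.760 CPM (adjusted p = 0.282).

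Among folate enzymes, 3 rose. Aldh1l2, a mitochondrial enzyme that oxidises 10-formyl-tetrahydrofolate and yields NADPH (ENSMUSG00000020256, chromosome 10, 83487450 to 83534140), stood at 159.8, 175 and 166 CPM in KO-labelled and at 120.2, 115 and 119 CPM in WT libraries. The groups were well apart, and Aldh1l2 rose by 0.50 (SE 0.06, adjusted p = 0.000249), while the median of its chromosome was -0.08. Mthfd2, a mitochondrial dehydrogenase of the same pathway, stood at 106, 104 and 92.1 CPM against 80.5, 82.3 and 79.2 CPM, a log2 difference of 0.32 (SE 0.07, adjusted p = 0.00635). Mthfd2 lies on chromosome 6, and against that chromosome's median the difference was 0.15 (adjusted p = 0.138). Shmt1, the cytosolic enzyme that moves a carbon from serine to folate, stood at 36.3, 34.1 and 36.6 CPM against 28.5, 29.0 and 30.5 CPM, a log2 difference of 0.28 (SE 0.07, adjusted p = 0.00916).

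The mitochondrial partner Shmt2 overlapped between the groups at 186, 208 and 205 CPM against 230.3, 206 and 189 CPM (log2 difference -0.06, interval -0.23 to 0.11). Mthfd1l, which releases formate in mitochondria, stood at 64.2 ± 4.07 against 68.3 ± 5.14 CPM (adjusted p = 0.409). Pck2, the mitochondrial form of phosphoenolpyruvate carboxykinase, had nearly equal means, 94.6 ± 0.373 against 91.7 ± 19.3 CPM. Its WT libraries ran from 71.7 to 110.3 CPM whereas its KO-labelled libraries ran from 94.3 to 95.01 CPM, so a difference within the WT spread was not detectable.

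**Figure D3:**
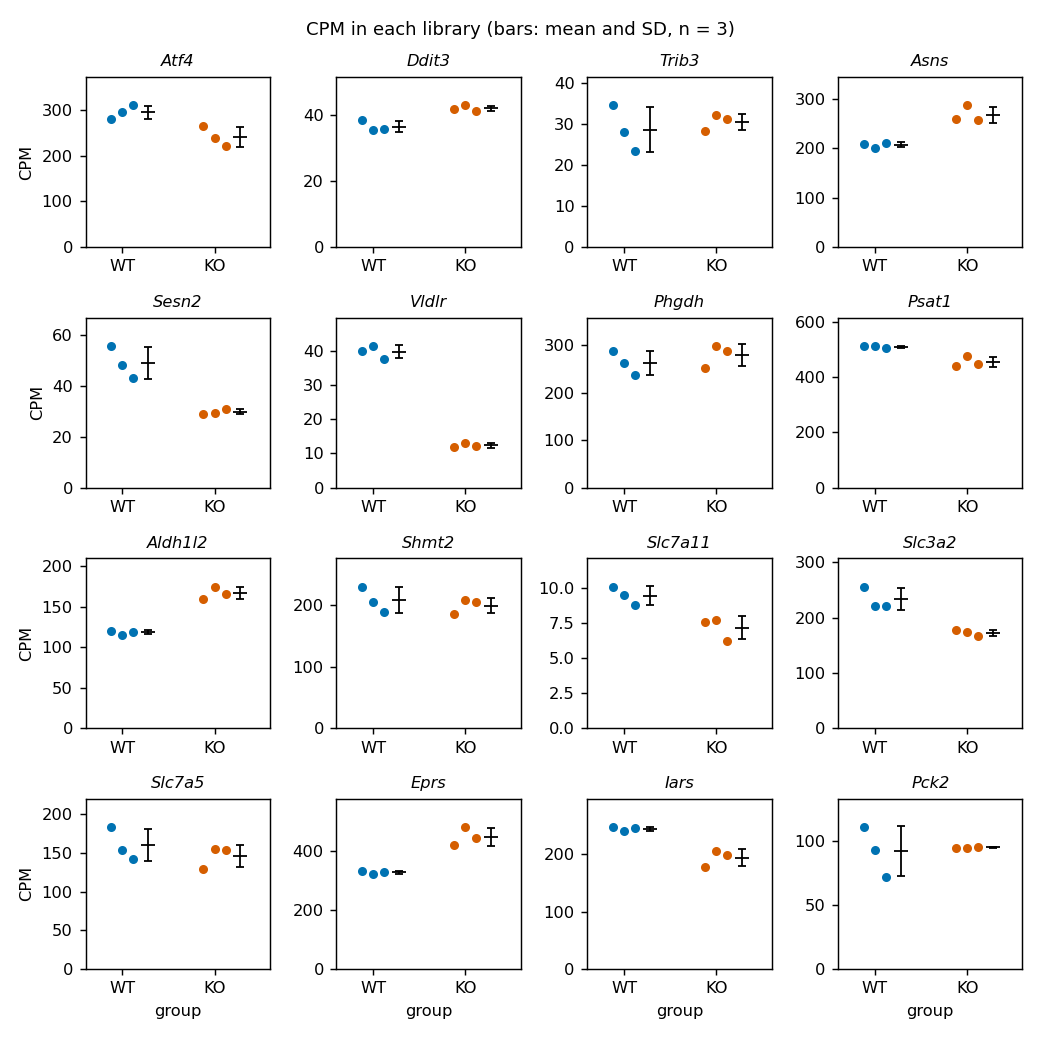
CPM of 16 of the genes in each library (vertical axis from 0), with WT libraries in blue and KO-labelled libraries in orange; black dashes and bars are mean and SD (n = 3). Vldlr, Sesn2, Slc3a2, Aldh1l2, Asns and Eprs have groups that do not overlap, whereas Trib3, Phgdh, Shmt2, Slc7a5 and Pck2 overlap, with Pck2 spread from 71.7 to 110.3 CPM in WT.

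Transporters moved in both directions, with 2 higher, 3 lower and 3 not passing (62.5% called, beside 38.9% of all genes tested). Slc3a2, the heavy chain that carries several light chains to the cell surface (ENSMUSG00000010095, chromosome 19, 8706882 to 8723369), stood at 177, 174 and 166 CPM in KO-labelled and at 256, 221 and 222 CPM in WT libraries. The groups did not overlap, and Slc3a2 fell by 0.43 (SE 0.08, adjusted p = 0.0017), or by 0.25 against the median of chromosome 19 (adjusted p = 0.0324). Its partner Slc7a5, the large neutral amino acid light chain, overlapped between the groups at 129, 155 and 154 CPM against 183, 154 and 143 CPM (log2 difference -0.13, interval -0.34 to 0.08). The other partner, Slc7a11, which exchanges cystine for glutamate, stood at 7.56, 7.72 and 6.19 CPM against 10.1, 9.46 and 8.73 CPM. These groups did not overlap, and Slc7a11 fell by 0.39 (SE 0.12, adjusted p = 0.0265). This call ended on leaving out KO-labelled library 3 (adjusted p = 0.0862), WT library 1 (0.0723) or WT library 2 (0.0782). With all 6 libraries it also ended when scaled by library size alone (0.0538). Its log2 differences were -0.45 to -0.30 over the leave-outs, and its adjusted p-values 0.00735 to 0.0862 over 14 alternatives.

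The neutral amino acid exchangers Slc1a4 and Slc1a5 went opposite ways. Slc1a4 stood at 45.4, 51.1 and 49.96 CPM in KO-labelled and at 76.9, 71.0 and 64.8 CPM in WT libraries and fell by 0.54 (SE 0.08, adjusted p = 0.000845). Slc1a5, which carries glutamine, stood at 19.6, 20.1 and 20.4 CPM against 17.8, 15.2 and 12.9 CPM, a log2 difference of 0.39 (SE 0.11, adjusted p = 0.0194), lost without KO-labelled library 2 (0.0586) or 3 (0.0601) or WT library 2 (0.069), with log2 differences of 0.28 to 0.50 over the leave-outs and adjusted p-values in a range of 0.00319 to 0.069 over 14 alternatives. Neither gene overlapped between the groups. Slc38a2, which takes up small neutral amino acids, stood at 436 ± 38.6 against 379 ± 1.47 CPM (adjusted p = 0.0700, and below 0.05 under 2 of 14 alternatives). The arginine and lysine carrier Slc7a1 stood at 116 ± 12.5 against 129 ± 0.878 CPM (adjusted p = 0.184). Its relative Slc7a3 was near 1 CPM, 1.45 ± 0.245 against 0.886 ± 0.169 CPM, with an adjusted p of 0.0484 that rose above the threshold under 10 of 14 alternatives (range 0.0323 to 0.174).

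Of the 10 tRNA synthetase genes, 5 rose, 1 fell and 4 did not pass (60% called, beside 38.9% of all genes tested), with a median log2 difference of 0.22. Each enzyme loads its own amino acid onto tRNA, and that of Eprs loads both glutamate and proline. Eprs (ENSMUSG00000026615, chromosome 1, 185363044 to 185428360) stood at 420.3, 479 and 442 CPM in KO-labelled and at 331, 320.2 and 328 CPM in WT libraries, a log2 difference of 0.45 (SE 0.07, adjusted p = 0.00101). Iars, for isoleucine (ENSMUSG00000037851, chromosome 13, 49682100 to 49734267), stood at 177, 205 and 199 CPM against 247, 240.0 and 245 CPM and fell by 0.33 (SE 0.07, adjusted p = 0.00568). The groups did not overlap for either gene, and the WT values of both were tight. Gars, for glycine, stood at 416, 437 and 403 CPM against 359, 345 and 354 CPM, a log2 difference of 0.25 (SE 0.07, adjusted p = 0.0174). Lars, for leucine, stood at 229, 247 and 236 CPM against 206, 204 and 194 CPM, with a log2 difference of 0.24 (SE 0.07, adjusted p = 0.018). Nars, for asparagine, and Aars, for alanine, rose by 0.21 and 0.29 (adjusted p = 0.0405 and 0.0485), and Aars alone among the 6 called synthetases had overlapping groups. With 1 library left out, the log2 difference stayed at 0.21 to 0.27 for Gars, 0.20 to 0.26 for Lars, 0.17 to 0.23 for Nars and 0.22 to 0.38 for Aars, but their calls did not all hold. They were lost without KO-labelled library 2 (adjusted p = 0.0746, 0.0788, 0.14 and 0.172) and without WT library 2 (0.0952, 0.0724, 0.144 and 0.151). Without KO-labelled library 3, Lars (0.0602), Nars (0.086) and Aars (0.138) were lost. Leaving out WT library 3 ended the calls of Lars (0.0538) and Aars (0.124), and leaving out WT library 1 ended that of Nars (0.104). With all 6 libraries, the replicate number as a block ended the calls of Gars (0.0714), Lars (0.0654), Nars (0.122) and Aars (0.109). Fitting without a count filter ended those of Gars (0.0823), Lars (0.0846) and Nars (0.203). Wars, for tryptophan, had a log2 difference of 0.23 (adjusted p = 0.0566) and passed under 5 of 14 alternatives (lowest 0.0157), Yars, for tyrosine, of 0.17 (0.111), Cars, for cysteine, of 0.06 (0.514) and Sars, for serine, of -0.03 (0.785).

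For 5 of the 6 called synthetases the genes of the same chromosome had a median difference of the same sign. The median log2 difference of all tested genes was 0.29 on chromosome 1, which holds Eprs, -0.28 on chromosome 13, which holds Iars, 0.17 on chromosome 6, which holds Gars, and 0.11 on chromosome 18, which holds Nars and Lars. Measured against these medians, Eprs stood at 0.17 (adjusted p = 0.11), Iars at -0.05 (0.644), Gars at 0.08 (0.415), Nars at 0.09 (0.328) and Lars at 0.13 (0.173). Aars, on chromosome 8 with a median of -0.01, stood at 0.30 (0.0461) and was the synthetase still called. The median of the 10 synthetases was 0.11 at this setting. Over all 40 genes, 15 of the 24 calls remained, 6 of them higher and 9 lower. The effectors Gdf15, Vldlr, Sesn2, Ppp1r15a and Chac1 stayed among them, at -3.24, -1.50, -0.84, -0.61 and -0.33. The share of calls kept at this setting among all called genes is not given here.

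**Figure D4:**
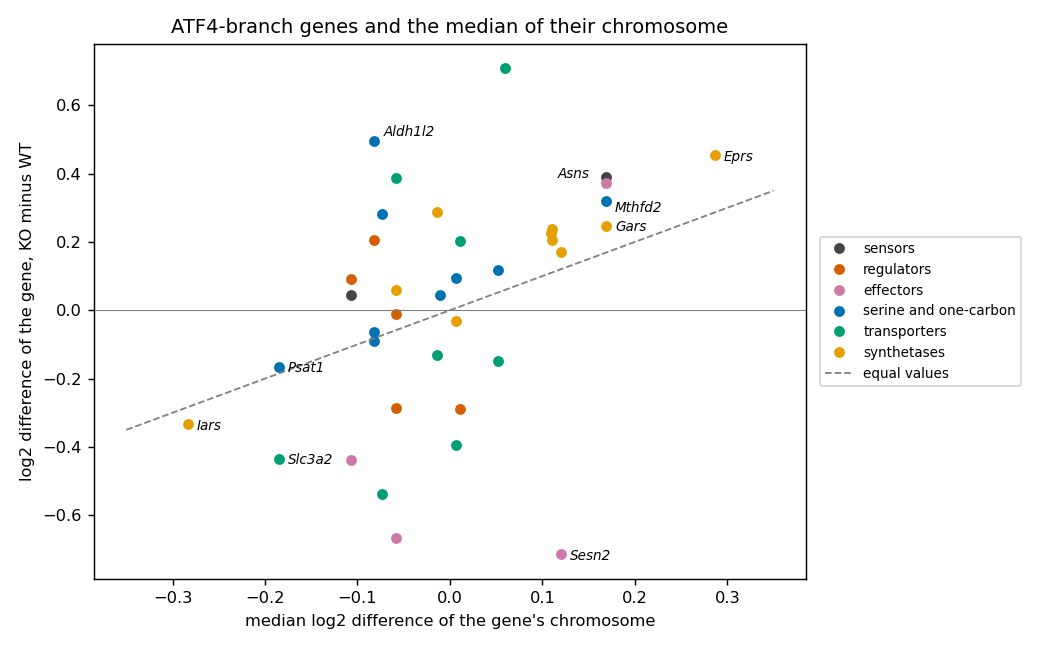
Log2 difference of 38 of the tested genes (vertical axis; Gdf15 and Vldlr lie below the range shown) against the median log2 difference of all tested genes on the same chromosome (horizontal axis), coloured by role, with a dashed line of equal values. Eprs and Iars sit at the right and left ends, at chromosome medians of 0.29 and -0.28, and Sesn2 and Aldh1l2 lie far from the line.

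Libraries of a group differed together in many of these genes. WT library 1 held the highest WT value in 26 of the 40 genes (65%), beside 39.4% of all genes tested, and WT library 3 the lowest in 23. In 17 genes (42.5%) both held, beside 27.6% of all genes. KO-labelled library 2 held the highest value of its group in 27 genes (67.5%), beside 32.1% of all genes, and KO-labelled library 1 the lowest in 24. The median coefficient of variation within WT was 5.32% for the 40 genes and 6.74% for genes at 10 CPM or more, and within the KO-labelled group 6.14% and 5.72%. Within WT, the coefficient of variation was highest for Gdf15 (22.3%), Pck2 (21.1%) and Trib3 (19.5%), and that of Atf5 was 16.0%. In the KO-labelled libraries Pck2 varied by 0.394% and Trib3 by 6.59%.

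**Figure D5:**
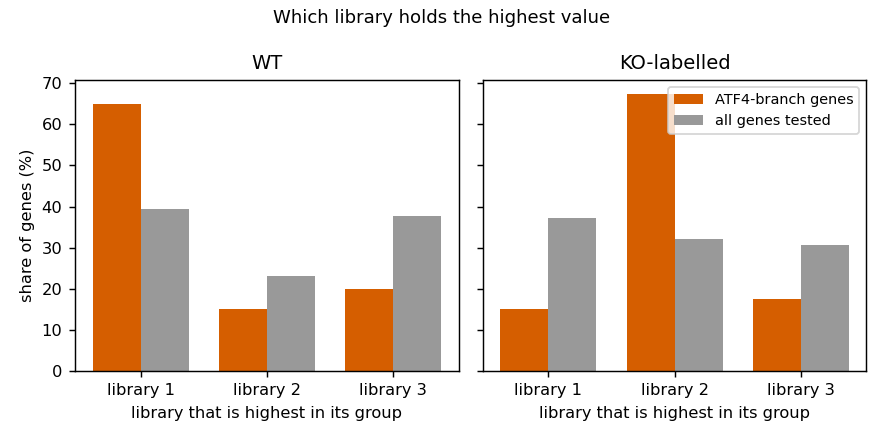
Share of genes (percent, vertical axis from 0) whose highest value in a group lies in library 1, 2 or 3, for the 40 ATF4-branch genes in orange and all 15454 genes tested in grey, with WT on the left and KO-labelled on the right. WT library 1 (65% against 39.4%) and KO-labelled library 2 (67.5% against 32.1%) stand out among the 40 genes.

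Further genes of the pathway were read from lists that hold none of the 41. Of 27 tested targets of ATF4 and CHOP, 6 rose, 9 fell and 12 did not pass (55.6% called, beside 38.9% of all genes tested), with a median log2 difference of -0.16. Cebpd, a C/EBP transcription factor, fell from 67.6 ± 6.19 to 22.2 ± 1.95 CPM, Ddit4 (REDD1, which restrains mTORC1) from 12.6 ± 0.804 to 4.33 ± 0.384 CPM, and Cth, which makes cysteine from cystathionine, from 8.41 ± 0.529 to 2.72 ± 0.184 CPM, with adjusted p-values of 1.62e-06, 6.30e-06 and 8.60e-06. Of 18 genes of eIF2, its exchange factor and its regulators, 2 rose, 1 fell and 15 did not pass (16.7% called, median -0.02). Eif2s3x, the gamma subunit of eIF2, fell by 0.34 (adjusted p = 0.00373). Eif2ak2, the kinase PKR, and Ppp1r15b, the constitutive counterpart of Ppp1r15a, rose by 0.26 (0.0204) and 0.17 (0.0445), but stood at -0.02 and -0.11 against their chromosomes' medians. Without KO-labelled library 1 or 2 or WT library 1 or 2, Eif2ak2 was lost (0.0593, 0.0825, 0.0575 and 0.0934), and Ppp1r15b was lost without any 1 library, at 0.0515 to 0.143, with log2 differences of 0.22 to 0.31 and 0.15 to 0.19.

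Of 13 tested genes of the other cytosolic synthetases and their scaffold proteins, 2 rose, 3 fell and 8 did not pass (38.5% called, median -0.06), a share near the 38.9% of all genes tested. Farsa, a phenylalanine synthetase subunit, fell by 0.51 (adjusted p = 0.00105), Qars, for glutamine, fell by 0.40 (0.0022), and Dars, for aspartate, rose by 0.40 (0.0124), or stood at 0.12 (0.422) against the median of chromosome 1. Of 17 mitochondrial synthetases, 4 rose, 3 fell and 10 did not pass (41.2% called, median 0.13), again near that of all genes. Fars2 fell by 0.66 (0.00553) and Sars2 by 0.55 (0.0181). Against the median of chromosome 13 Fars2 stood at -0.37 (0.0739). Sars2 was lost without KO-labelled library 2 (0.0596) or 3 (0.0505) or WT library 1 (0.0573) or 2 (0.0522), with log2 differences of -0.72 to -0.42 over the 6 fits.

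Of 20 tested folate and one-carbon genes outside the 41, 3 rose, 4 fell and 13 did not pass (35% called, median -0.12), a share near the 38.9% of all genes tested. Mtrr, which reactivates methionine synthase, fell from 28.3 ± 2.69 to 17.9 ± 0.544 CPM, and the reduced folate carrier Slc19a1 from 23.97 ± 2.09 to 15.5 ± 0.211 CPM, with adjusted p-values of 0.000225 and 0.000277. Sfxn1, a mitochondrial serine transporter, fell by 0.38 (0.00111), or stood at -0.09 (0.275) against the median of chromosome 13. Of 22 tested genes of the unfolded protein response, the sister pathway of the endoplasmic reticulum, 6 rose, 2 fell and 14 did not pass (36.4% called, median 0.12). That share was again near the 38.9% of all genes tested. Ern1, the sensor IRE1, fell by 0.46 (0.00105), and the folding proteins Sdf2l1 and Pdia4 rose by 0.30 (0.00504) and 0.31 (0.0109). Pdia4 stood at 0.14 (0.189) against the median of chromosome 6 and was lost without KO-labelled library 2 (0.053) or WT library 2 (0.0642), with log2 differences of 0.26 to 0.36.

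The calls that held under every alternative setting were 10 of the 24. Of these, Eif2ak3, Shmt1 and Aldh1l2 were higher, and Chac1, Sesn2, Ppp1r15a, Gdf15, Vldlr, Slc3a2 and Slc1a4 were lower. Another 4, Asns, Mthfd2, Eprs and Iars, were lost only against the median of the chromosome. The other 10 calls, among them Atf4 and Ddit3, were lost under at least 3 of the 14 alternatives. The same shares over all 6011 called genes are not given here. These counts therefore do not show whether the listed genes were more or less stable than other called genes.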

How the data were processed

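The authors deposited expected counts per Ensembl gene, estimated with RSEM after cutadapt on build GRCm38, per the submitters' processing notes; no version is named there, and neither aligner nor strandedness is given in the sources used here. RSEM can divide a read among genes: 17.9% of the values are fractional, and 16 of the 41 genes held such values. Symbols, positions and exon lengths came from GENCODE M21 (GRCm38), which matched 55230 of 55471 identifiers. Where 2 identifiers shared a symbol (Ddit3), the one with more counts was used.

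Expected counts were rounded, filtered with filterByExpr (minimum count 10, minimum total 15), scaled by TMM and fitted in edgeR 4.0.16 under R 4.3.3, where the quasi-likelihood test (two-sided) took the genotype alone. All adjusted p-values are Benjamini-Hochberg values over 15454 genes, called below 0.05, unless a setting is named. SE comes from the F statistic and 95% intervals of a difference assume normal errors. Counting intervals cover counting error only, and the floor used for Stc2 takes its WT counts as exact. With 3 against 3 libraries an exact permutation test cannot go below p = 0.1 and was not used. For the chromosome setting, the median log2 difference of each chromosome was an offset in the fit. The pipeline was tested on simulated data. No 2 libraries of a group agreed within sampling noise.

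Alternatives were size factors or the Wald test of DESeq2 1.42.0, library size alone, other count filters, limma-voom (limma 3.58.1), the chromosome offset, a replicate block and each library left out. The 41 genes and all lists were chosen with earlier results of these data known. All 41 are accounted for. Values per library are given for Atf4, Ddit3, Asns, Trib3, Phgdh, Psat1, Shmt2, Slc7a11, Slc7a5 and Slc3a2. They are also given for up to 4 genes of each role with the smallest adjusted p. Up to 3 genes of each further list are named by the same measure. The filter at 10 CPM, the comparison of libraries within a group and the sequences shown were chosen after values were seen, as were the marker sums without 1 gene and the 16 genes plotted by library. A marker, a gene of a further list and 1 promoter sequence are not reported here.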

Additional observations from a re-analysis of the deposited data

How the results depend on the processing

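Counts of called genes moved most with the chromosome offset, the replicate block, the count filter and the library left out. The cause was not tested. The share of all genes called under each alternative is not given here. The counts that follow therefore do not show whether the listed genes lost more calls than genes in general. Leaving out a library ended some calls and added others, such as Wars without KO-labelled library 1 and Yars without WT library 1. Against the chromosome median, 6 of the 41 genes were called higher in place of 13, with 0 effectors, 1 synthetase and 1 transporter higher and 1 regulator and 0 synthetases lower, and a synthetase median of 0.106. Among further genes, 0 of the eIF2 list, 0 mitochondrial and 0 other cytosolic synthetases were higher and 1 of the unfolded protein response lower, with medians of -0.105 (eIF2), -0.0159 (mitochondrial synthetases) and -0.0296 (folate). At this setting Atf5 (0.0463), Psat1 (0.0201) and Shmt2 (0.0197) turned positive and Eif2ak2 (-0.0164) and Ppp1r15b (-0.113) negative. Without a count filter, 8 of the 41 were called higher, with 0 regulators, 2 synthetases and 1 transporter among them, 1 gene of the eIF2 list and 3 of the unfolded protein response, and medians of -0.0554 (eIF2) and -0.149 (folate). With at least 1 CPM in 3 libraries, 1 regulator was lower, Atf5 stood at 0.0115, and the medians were 0.00208 (eIF2) and -0.0854 (folate). With library size alone, 0 regulators were lower, 1 transporter higher, 1 unfolded protein response gene lower, the eIF2 median was 0.000475 and Atf5 stood at 0.00799. The DESeq2 Wald test called 1 serine and one-carbon gene lower (Psat1). Calls were also gained: Wars passed under 5 of 14 alternatives, Slc38a2 under 2 (the Wald test and the filter at 1 CPM), and Psat1 and Yars under 1 each. With DESeq2 size factors or limma-voom, the 24 calls were the same genes.

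With the replicate block, 7 of the 41 were called higher, with 0 regulators, 1 synthetase and 1 transporter among them, 0 regulators lower, 0 genes of the eIF2 list and 3 of the unfolded protein response higher. Same-numbered libraries did not deviate together: the correlations of their deviations were 0.0224, -0.0811 and -0.0343 for numbers 1, 2 and 3. No library correlated best with its own number. KO-labelled libraries 1, 2 and 3 correlated best with WT libraries 3 (0.034), 1 (0.0719) and 2 (0.152). The numbers are therefore not taken to pair the libraries.

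With each library left out in turn, the genes called higher numbered 6 to 13 of the 41: 0 to 1 regulators, 1 to 6 synthetases and 0 to 2 transporters. Regulators called lower numbered 0 to 2, and their median ran from -0.114 to 0.114. Further lists gave 0 to 1 higher (eIF2), 1 to 4 higher and 1 to 3 lower (mitochondrial synthetases, median 0.0696 to 0.204), 1 to 3 higher (other cytosolic synthetases, median -0.151 to -0.0189), 1 to 4 higher (folate, median -0.141 to -0.067) and 1 to 8 higher and 1 to 2 lower (unfolded protein response), and the median of further ATF4 and CHOP targets ran from -0.200 to -0.126. Differences that did not pass spanned both signs for Sars (-0.0989 to 0.0353), Atf5 (-0.114 to 0.114, and 8.67e-05 without KO-labelled library 3), Shmt2 (-0.129 to 0.0119), Trib3 (-0.0348 to 0.242) and Pck2 (-0.104 to 0.196). Leaving out any 1 library kept 5 effectors lower and 3 serine and one-carbon genes higher. Without a count filter 6 effectors were lower, since Stc2 was then tested. The longer promoter form TGATGNAAT was in 4 of 33 genes.

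With 3 libraries a group, the smallest differences called among the 40 genes were about 0.2 on the log2 scale (Nars and Ddit3, 0.21 each). The limit differed by gene. Wars at 0.23 did not pass (edgeR adjusted p = 0.0566), and Slc7a3 at 0.71 passed narrowly (0.0484). A gene that did not pass may thus differ by more than 0.2. Gdf15, Slc7a3 and Stc2 rest on few counts. Reads shared between genes limit the 16 genes with fractional values.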
